A study of Brassica rapa subsp. chinensis with 24 samples.

Results

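The jasmonate genes described here are 38 listed identifiers that stand, in Arabidopsis thaliana, for the enzymes of jasmonate synthesis and turnover, the receptor, the JAZ repressors and the factors they hold back. They were chosen by identifier, with earlier results of these data known. Of the 38, 33 were found among the 20564 identifiers of the count table. AOC1, JAZ4, JAZ11, VSP1 and CYP94B3 were not analysed here. The plants were Choy-sum of wild type, a leafy form of Brassica rapa subsp. chinensis, and grew in peat-moss soil. In the treated groups seeds had been dressed with SAB, a consortium of Streptomyces, Agromyces and Bacillus, and in the untreated groups seeds had been soaked in 10 mM MgSO4. Whole leaves and whole roots were taken at 2 ages, day 8 (true leaf stage) and day 18 (mature plants not yet flowering), with 3 independent biological replicates in each of the 8 groups. The comparisons ask how a bacterial dressing of the seed was followed by transcript differences in each tissue at each age.

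Jasmonates are lipid hormones that plants make when wounded, attacked or entering certain steps of development. Lipases free a fatty acid from plastid membranes, lipoxygenases (LOX) oxygenate it, allene oxide synthase (AOS) and cyclases (AOC) close the ring, and OPR3, OPCL1 and peroxisomal beta-oxidation finish jasmonic acid, which JAR1 joins to isoleucine. The conjugate binds the receptor COI1 together with a JAZ protein, the JAZ repressor is destroyed, and MYC transcription factors are set free to switch on their targets. Many JAZ and synthesis genes are themselves MYC targets, so they are commonly read as a gauge of jasmonate signalling, although no hormone was measured here. These names and roles are those of the Arabidopsis thaliana genes, and the files do not show that the Choy-sum genes carrying the same codes do the same.

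The 33 genes were covered by 129 of the 66566 rows of the table, with 1 to 15 rows per gene, and the rows of a gene were summed in each library. Levels are CPM, each count taken against its library's total after TMM scaling, given as mean ± SD of 3 libraries. They can be compared between libraries for 1 gene but not between genes, since no gene lengths were used. The libraries held 28068078 to 37999455 estimated counts each, of which the 33 genes took 0.082% to 0.543%. After the filter on low counts 31 of the 33 could be tested in leaf, where AOC3 and DAD1 were left out, and 30 in root, where VSP2, JMT and DAD1 were left out. DAD1, a lipase gene known from anthers, was above 0 in 2 of the 24 libraries and was tested in neither tissue. The tissues matched their labels: the summed level of 13 leaf markers was 80200 to 211400 CPM in leaf and 40.4 to 734.7 CPM in root, and that of 11 root markers was 718 to 2400 CPM in root and 25.7 to 49.2 CPM in leaf. The root marker SHR did not separate the tissues at day 18, with 34.6 ± 4.8 CPM in untreated leaf and 35.7 ± 5.1 CPM in untreated root. These are bulk samples, so fewer cells of a type and less RNA per cell cannot be told apart. A gene is said to have risen or fallen only where edgeR's quasi-likelihood test gave a Benjamini-Hochberg adjusted p below 0.05 over all identifiers tested.

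**Figure D1:**
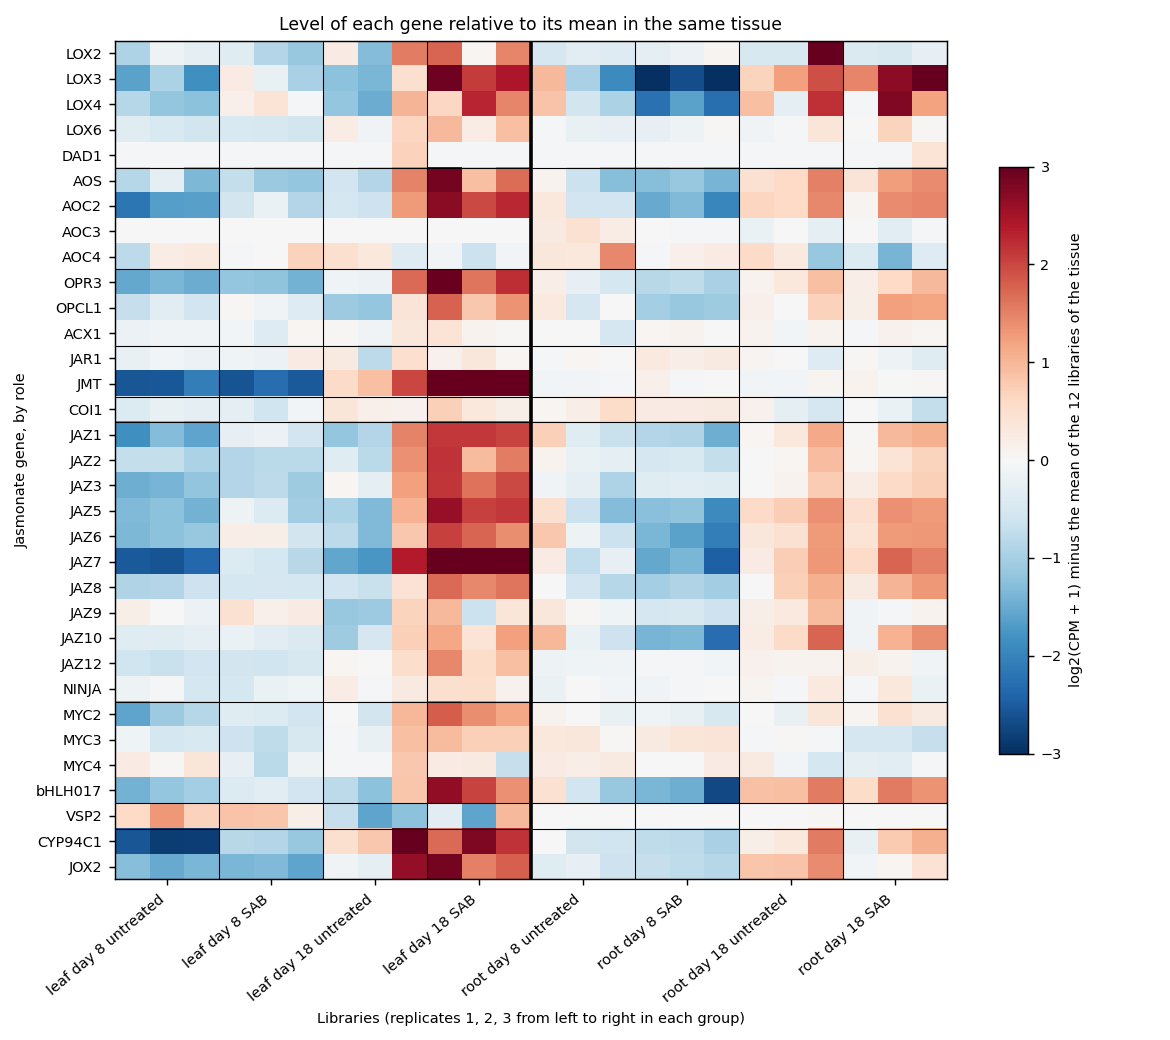
Level of each of the 33 genes (rows, by role) in each of the 24 libraries (columns, replicates 1, 2 and 3 from left to right in each group), as log2(CPM + 1) minus the mean of that gene over the 12 libraries of the same tissue. LOX3, AOC2, OPCL1, JAZ1, JAZ3, JAZ5, JAZ6, JAZ7, JAZ8 and JAZ12 were reddest among the leaves in the 3 SAB libraries of day 18. For these genes untreated leaf replicate 3 of that day stood between the SAB leaves and the other untreated leaves. In other synthesis and JAZ genes, such as LOX2, AOS, OPR3, JAZ2, JAZ9 and JAZ10, that replicate lay above the lowest SAB leaf of day 18. Many synthesis and JAZ genes were blue in the SAB roots of day 8.

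In leaves at day 18, 12 of the 31 jasmonate genes tested rose in SAB plants (38.7%), 0 fell and 19 did not pass, where 7.91% of all 17706 identifiers rose and 6.52% fell. The 12 were LOX3, AOC2, OPR3 and OPCL1 of synthesis, JMT, the repressor genes JAZ3, JAZ5, JAZ6, JAZ8 and JAZ12, and the factors MYC2 and bHLH017. The median log2 fold of the 31 was 1.28, beside -0.001 for all identifiers, and 29 of the 31 folds were above 0. In 13 genes all 3 SAB libraries lay above all 3 untreated ones, 13.8% of all identifiers doing so, and in 0 they lay below, with 15% of all identifiers.

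**Figure D2:**
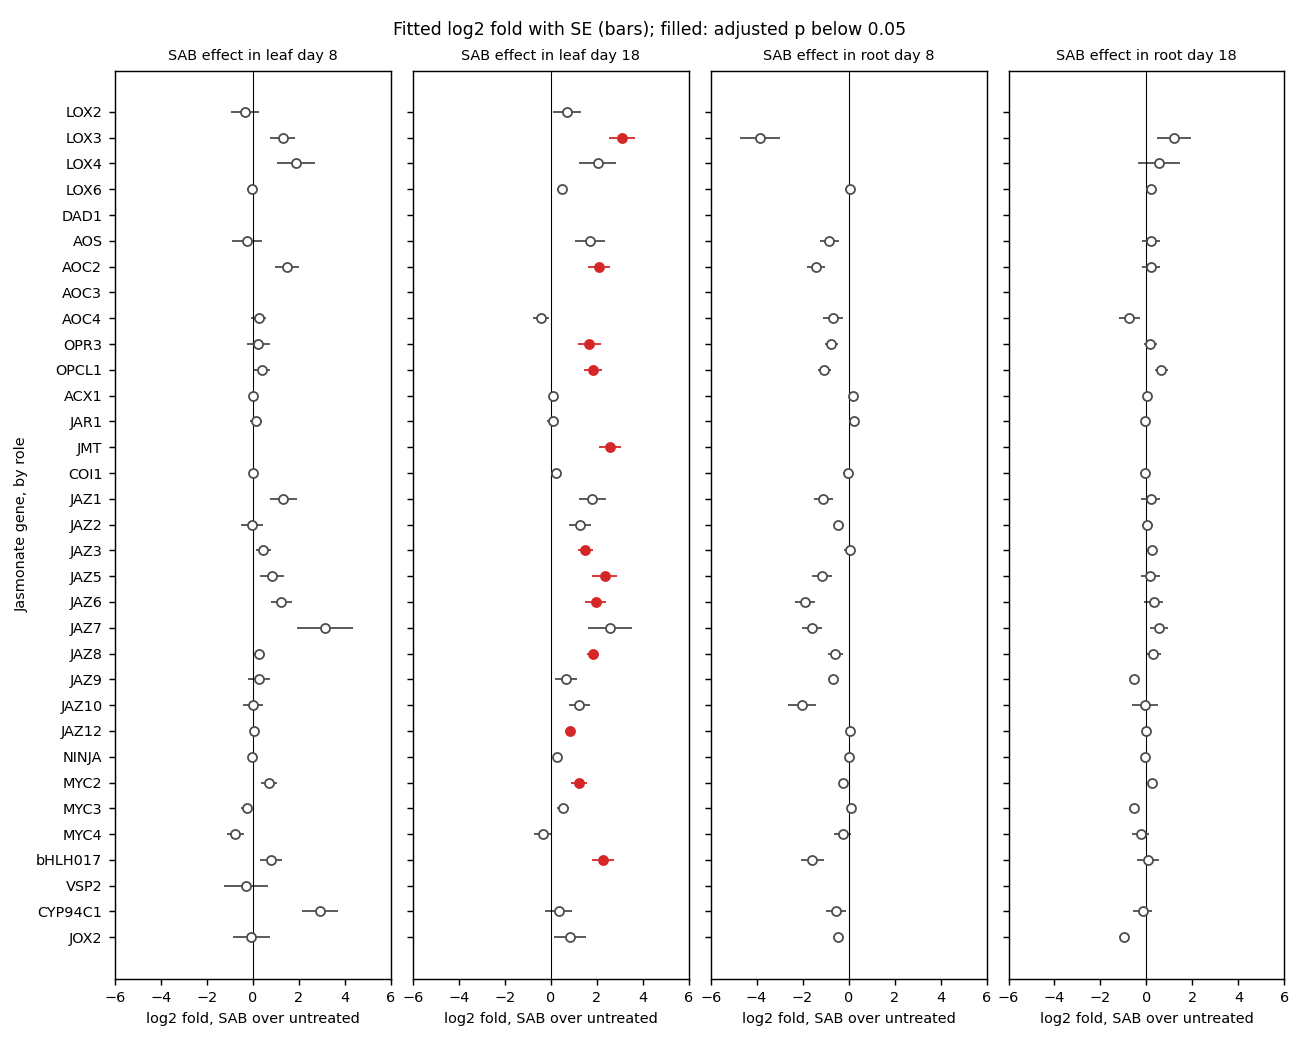
Fitted log2 fold of SAB over untreated with its SE (bars) for each gene by role in the 4 comparisons, with filled red points where the adjusted p was below 0.05 and no point where a gene was not tested or a group had a mean below 0.5 CPM. Filled points occur in leaf at day 18 and in no other panel, where 12 genes lie to the right of 0, and most points of root day 8 lie to the left.

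Among the synthesis genes, LOX3 (AT1G17420), a lipoxygenase gene that wounding is known to induce in Arabidopsis thaliana, stood at 6.70, 5.99 and 23.98 CPM in the untreated leaves and at 134.8, 76.3 and 95.5 CPM in the SAB leaves. The groups did not overlap, and the log2 fold was 3.09 (SE 0.55, adjusted p = 0.00512, edgeR). AOC2 (AT3G25770), a cyclase gene, stood at 10.1, 9.41 and 38.1 CPM untreated and at 103.8, 62.4 and 75.8 CPM with SAB, again without overlap. Its log2 fold was 2.1 (SE 0.49, adjusted p = 0.0169, edgeR). OPCL1 (AT1G20510), which encodes the ligase that activates the precursor for beta-oxidation, stood at 50.4, 47.6 and 140.6 CPM untreated and at 367.3, 188.8 and 276.7 CPM with SAB. The lowest SAB leaf lay above the highest untreated one, and the log2 fold was 1.83 (SE 0.39, adjusted p = 0.0116, edgeR). OPR3 (AT2G06050), the reductase gene of the peroxisome, had a log2 fold of 1.68 (SE 0.49, adjusted p = 0.0423, edgeR), with means of 34.6 ± 28.6 CPM untreated and 108.5 ± 51.5 CPM with SAB and groups that overlapped. AOS (AT5G42650), from 30.8 ± 30.1 to 97.4 ± 67.6 CPM, and LOX4 (AT1G72520), from 3.12 ± 4.09 to 12.4 ± 7.46 CPM, did not pass (adjusted p = 0.114 and 0.122, edgeR). LOX2 (AT3G45140), the main leaf lipoxygenase of Arabidopsis thaliana, was 456.3 ± 391.8 CPM untreated and 726.9 ± 369.9 CPM with SAB, a log2 fold of 0.70 (SE 0.60, adjusted p = 0.498, edgeR). ACX1 (AT4G16760), an oxidase gene of beta-oxidation, and JAR1 (AT2G46370) had log2 folds of 0.10 and 0.11, each smaller than its SE.

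**Figure D3:**
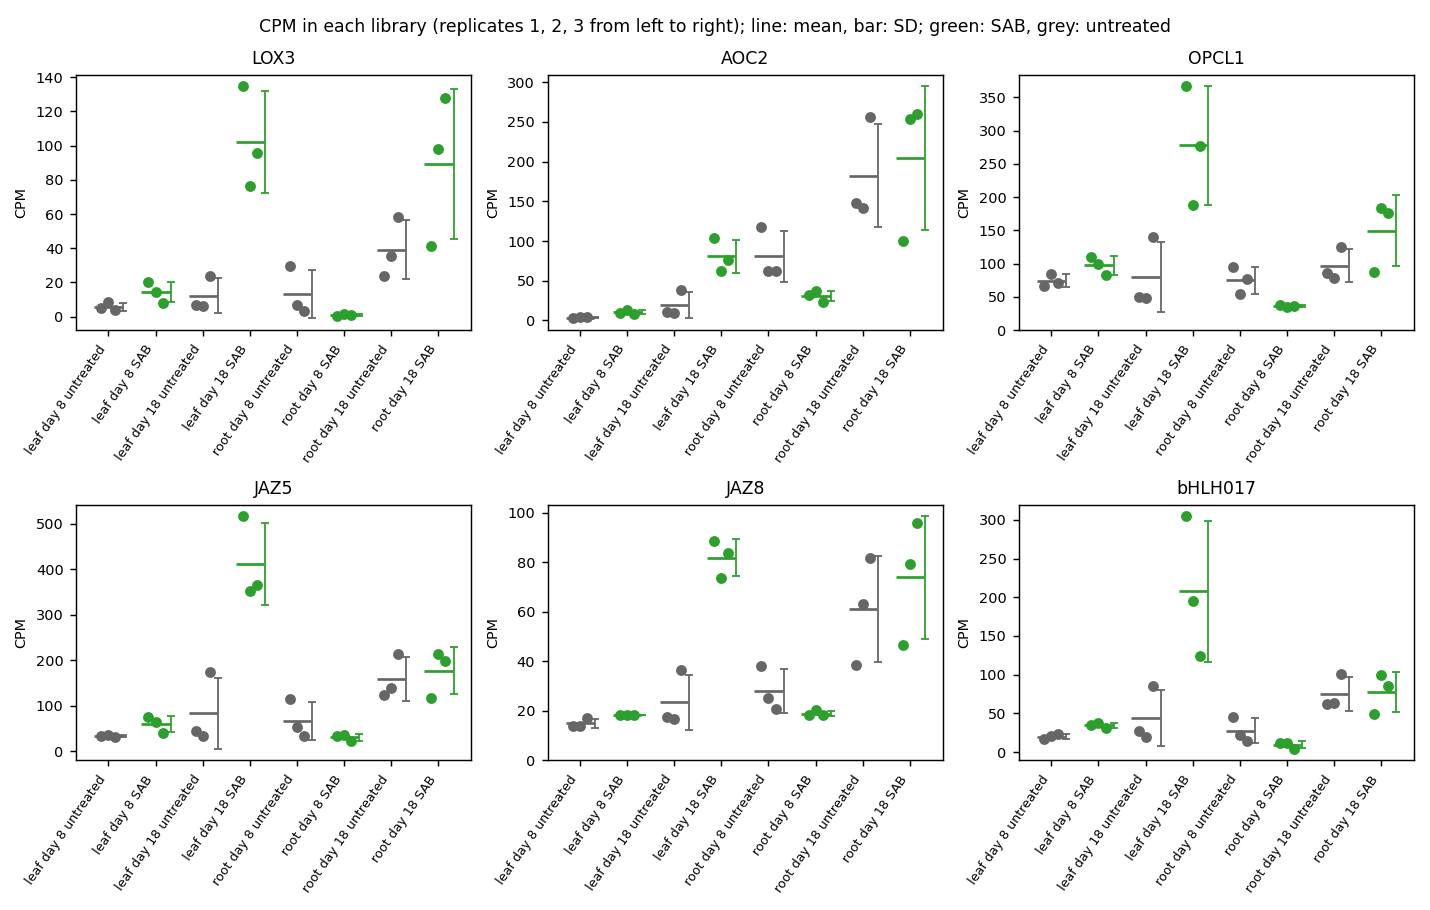
CPM of LOX3, AOC2, OPCL1, JAZ5, JAZ8 and bHLH017 in each library of the 8 groups (points, replicates 1, 2 and 3 from left to right), with the mean (line) and SD (bar), SAB in green and untreated in grey. At day 18 the 3 SAB leaves lie above the 3 untreated leaves in all 6 panels, and at day 8 the SAB roots of LOX3, AOC2, OPCL1, JAZ8 and bHLH017 lie below the untreated roots.

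Among the repressor genes, JAZ8 (AT1G30135) had the smallest p of the 31. JAZ8, whose protein in Arabidopsis thaliana resists hormone-driven destruction, stood at 17.6, 16.5 and 36.4 CPM in untreated leaves and at 88.5, 73.6 and 83.7 CPM in SAB leaves. The groups were far apart for their spread, with a log2 fold of 1.82 (SE 0.25, adjusted p = 0.00138, edgeR). JAZ5 (AT1G17380) stood at 43.2, 33.0 and 173.1 CPM untreated and at 516.1, 352.2 and 366.3 CPM with SAB, a log2 fold of 2.34 (SE 0.53, adjusted p = 0.0153, edgeR). JAZ3 (AT3G17860) stood at 29.2, 23.2 and 67.2 CPM untreated and at 128.7, 89.5 and 114.7 CPM with SAB, a log2 fold of 1.5 (SE 0.32, adjusted p = 0.0125, edgeR). Neither gene's groups overlapped, and in both the untreated library nearest to the SAB leaves was replicate 3. JAZ6 (AT1G72450) rose from 79.6 ± 65.0 to 300.6 ± 68.1 CPM and JAZ12 (AT5G20900) from 83.1 ± 17.6 to 144.4 ± 45.8 CPM, with log2 folds of 1.94 and 0.82 (adjusted p = 0.019 and 0.0216, edgeR). JAZ1 (AT1G19180) and JAZ7 (AT2G34600) had SAB leaves above all untreated ones without passing the test: JAZ1 had a log2 fold of 1.81 (SE 0.58, adjusted p = 0.0619, edgeR) and JAZ7 one of 2.58 (SE 0.96, adjusted p = 0.101, edgeR). JAZ2, JAZ9 and JAZ10 had log2 folds of 0.65 to 1.28 and overlapping groups. NINJA (AT4G28910), the adaptor through which JAZ proteins recruit a corepressor, stood at 47.6 ± 5.72 CPM untreated and 56.4 ± 8.09 CPM with SAB (adjusted p = 0.326, edgeR).

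The factors and the branch genes were mixed. MYC2 (AT1G32640), the factor that JAZ proteins hold back, rose from 98.3, 67.4 and 199.9 CPM to 352.3, 262.8 and 223.9 CPM, a log2 fold of 1.22 (SE 0.34, adjusted p = 0.0377, edgeR). Its relatives MYC3 (AT5G46760) and MYC4 (AT4G17880) had log2 folds of 0.53 and -0.35 and did not pass (adjusted p = 0.188 and 0.599, edgeR). bHLH017 (AT2G46510), a relative of MYC2 known in Arabidopsis thaliana to oppose it, stood at 27.0, 19.3 and 85.0 CPM untreated and at 304.4, 195.4 and 123.5 CPM with SAB. Its groups did not overlap, and the log2 fold was 2.27 (SE 0.49, adjusted p = 0.0127, edgeR). JMT (AT1G19640), whose enzyme turns jasmonic acid into its volatile methyl ester, stood at 8.24, 10.6 and 24.2 CPM untreated and at 118.9, 77.2 and 55.6 CPM with SAB, a log2 fold of 2.57 (SE 0.49, adjusted p = 0.00659, edgeR). The receptor gene COI1 (AT2G39940) stood at 46.0 ± 4.10 CPM untreated and 53.3 ± 11.01 CPM with SAB, a log2 fold of 0.23 (SE 0.16, adjusted p = 0.404, edgeR). The turnover genes CYP94C1 (AT2G27690), an oxidase of the isoleucine conjugate, and JOX2 (AT5G05600), a hydroxylase of jasmonic acid, had log2 folds of 0.35 (SE 0.58) and 0.83 (SE 0.69) and overlapping groups. VSP2 (AT5G24770), a storage protein gene often used as a jasmonate marker, stood at 1.01, 0.0743 and 0.369 CPM untreated and at 1.57, 0.0762 and 5.33 CPM with SAB, with 1 SAB leaf at the level of the lowest untreated leaf.

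The untreated leaves of day 18 did not form a tight group. Replicate 3 was the highest of the 3 in 28 of the 31 genes, against 38.7% of all identifiers, and the mean log2(CPM + 1) over the 31 genes was 4.58, 4.34 and 5.90 in untreated replicates 1, 2 and 3 beside 6.62, 6.07 and 6.26 in the SAB leaves. Without untreated replicate 3 the edgeR count rose to 22 genes higher, the 12 included, and without untreated replicate 1 it was 6 (LOX3, JAZ3, JAZ8, JMT, OPCL1 and bHLH017). With 1 of the 12 leaf libraries left out at a time, LOX3, JMT, OPCL1, JAZ3, JAZ8 and bHLH017 passed in all 12 fits. The call was lost in 10 fits for OPR3, 8 for MYC2, 3 for JAZ12, 2 for JAZ6 and 1 each for AOC2 and JAZ5. Without untreated replicate 3 the log2 folds were larger, 4.01 for LOX3, 3.44 for JAZ5, 3.17 for bHLH017 and 3.05 for AOC2. A fit of the 6 compared libraries alone called 3 of the 12, LOX3, JAZ8 and JMT. Scaling by library totals, under which the median of all identifiers moved to 0.17 on the log2 scale, called 17, the 12 included. The summed level of the 13 leaf markers, genes of photosynthesis, was 132800 to 165400 CPM in the untreated leaves and 80200 to 98160 CPM in the SAB leaves of that day. Of these markers 8 fell and 0 rose, and none was at 0 in either group. The part of this shift in the jasmonate result was not tested.

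In leaves at day 8 no jasmonate gene passed the test, although several already had separate groups. Of 31 genes 0 rose and 0 fell in edgeR's test, where 0.390% of all identifiers rose and 0.0339% fell, with 7 genes at an unadjusted p below 0.05, all higher with SAB. DESeq2 called 1, CYP94C1, and limma-voom called 0. In 11 genes the SAB leaves lay above all untreated leaves, which held for 10.9% of all identifiers, and in 1, MYC4, they lay below, which held for 8.68%. The median log2 fold of the 31 was 0.22 beside -0.005 for all identifiers.

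CYP94C1 had the smallest p, at 0.808, 0.495 and 0.528 CPM in untreated leaves and 5.07, 4.81 and 3.85 CPM in SAB leaves, a log2 fold of 2.91 (SE 0.78, adjusted p = 0.196, edgeR). The groups were clearly apart, but the untreated levels were under 1 CPM and rest on few reads. AOC2 stood at 2.58, 4.11 and 4.18 CPM untreated and at 10.1, 13.1 and 7.80 CPM with SAB (adjusted p = 0.373, edgeR). JAZ6 stood at 34.2, 37.1 and 39.6 CPM untreated and at 100.7, 99.8 and 60.2 CPM with SAB, a log2 fold of 1.22 (SE 0.46, adjusted p = 0.434, edgeR). JAZ7 stood at 0.505, 0.419 and 0.679 CPM untreated and at 5.46, 4.98 and 3.80 CPM with SAB (adjusted p = 0.466, edgeR). In all 4 genes every SAB leaf lay above every untreated leaf, and none passed the test. The fit pooled its spread over the 12 leaf libraries: the 6 libraries of day 8 alone called 5 genes (LOX4, JAZ1, JAZ6, JAZ7 and CYP94C1), and leaving out untreated replicate 3 of day 18 called 4 (AOC2, JAZ1, JAZ7 and CYP94C1).

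Both leaf ages had SAB above untreated, without overlap, in 9 of the 31 genes (29.0%): AOC2, JAZ1, JAZ3, JAZ5, JAZ6, JAZ7, JAZ8, MYC2 and bHLH017. Of all identifiers 3.57% did so. The difference between the ages was tested in its own contrast, in which 1 of 31 genes had a larger SAB effect at day 18 and 0 a smaller one, where 0.988% and 1.47% of all identifiers passed. This gene was JAZ8, whose leaves of day 8 stood at 13.8, 13.9 and 17.1 CPM untreated and at 18.3, 18.5 and 18.3 CPM with SAB. Its change of the log2 fold was 1.54 (SE 0.35, adjusted p = 0.048, edgeR), close to the threshold. The call was lost, at an adjusted p of 0.0673 to 0.128, when any 1 leaf library other than untreated replicate 3 of day 18 was left out, and at 0.0522 under median-ratio scaling and with no filter, and at 0.0935 with the replicate number as a block. Over all alternatives its adjusted p ran from 0.00183 (DESeq2) to 0.128. Without that replicate 13 genes passed, JAZ8 among them.

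In roots at day 8 no single jasmonate gene was shown to differ. Of 30 genes 0 passed edgeR's test, where 0.0685% of all 18973 identifiers fell and 0.00527% rose, and 12 had an unadjusted p below 0.05, all lower with SAB. DESeq2 called 8 lower (LOX3, LOX4, AOC2, OPCL1, JAZ6, JAZ7, JAZ10 and bHLH017), and limma-voom called 0. In 17 genes the SAB roots lay below all untreated roots, which held for 11.1% of all identifiers, and in 3 they lay above, which held for 11.7%. The median log2 fold of the 30 was -0.62 beside -0.02 for all identifiers.

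LOX3 had the smallest p, at 29.5, 6.92 and 3.12 CPM in untreated roots and 0.446, 1.45 and 0.873 CPM in SAB roots, a log2 fold of -3.86 (SE 0.86, adjusted p = 0.106, edgeR). JAZ6 stood at 62.6, 31.7 and 22.3 CPM untreated and at 13.2, 10.9 and 7.61 CPM with SAB, a log2 fold of -1.90 (SE 0.43, adjusted p = 0.111, edgeR). In both genes the groups did not overlap, the untreated libraries varied most, and replicate 1 was the highest. JAZ7 stood at 54.5, 26.9 and 38.2 CPM untreated and at 15.2, 17.1 and 7.51 CPM with SAB, a log2 fold of -1.60 (SE 0.42, adjusted p = 0.163, edgeR). OPCL1 stood at 94.7, 54.3 and 76.3 CPM untreated and at 37.8, 34.9 and 36.5 CPM with SAB, a log2 fold of -1.05 (SE 0.29, adjusted p = 0.191, edgeR). The SAB roots of OPCL1 lay within 3 CPM of each other and below every untreated root. LOX4 stood at 8.83, 2.75 and 1.83 CPM untreated and at 0.164, 0.801 and 0.136 CPM with SAB, too low with SAB for a fold to be given. COI1, NINJA, JAZ3, JAZ12, MYC3, ACX1 and LOX6 had log2 folds of -0.03 to 0.19. Untreated replicate 1 was the highest of its group in 19 of the 30 genes, against 24.2% of all identifiers.

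In roots at day 18 the groups overlapped in 27 of 30 genes. In edgeR's test 0 passed, where 0.200% of all identifiers rose and 0.564% fell, and 5 genes had an unadjusted p below 0.05, of which 1 was higher (OPCL1) and 4 lower. DESeq2 called 2 lower, MYC3 and JOX2, and limma-voom called 0. MYC3 stood at 44.5, 47.1 and 44.6 CPM untreated and at 32.2, 32.2 and 27.98 CPM with SAB, a log2 fold of -0.55 (SE 0.12, adjusted p = 0.0743, edgeR). JOX2 stood at 12.4, 12.6 and 19.2 CPM untreated and at 6.06, 6.83 and 9.08 CPM with SAB, a log2 fold of -0.99 (SE 0.22, adjusted p = 0.0813, edgeR). JAZ9 (AT1G70700) stood at 25.8, 28.1 and 44.5 CPM untreated and at 21.0, 22.1 and 24.5 CPM with SAB (adjusted p = 0.31, edgeR). In these 3 genes alone every SAB root lay below every untreated root, which held for 9.51% of all identifiers, and in 0 genes did the SAB roots lie above, which held for 6.79%. MYC3 passed when untreated root replicate 3 of day 8 was left out of the fit. LOX2 stood at 0.0239, 0.0215 and 18.2 CPM untreated and at 0.0505, 0.0232 and 0.202 CPM with SAB, so that 1 library set its untreated mean. That library, untreated replicate 3, was the highest of its group in 23 of the 30 genes and had a summed leaf marker level of 734.7 CPM, against 260.1 and 61.2 CPM in replicates 1 and 2, and the part of this in the LOX2 value was not tested.

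The change of the SAB effect with age in root was tested as well. In edgeR's test 0 of 30 genes passed, where 0.822% of all identifiers had a higher and 0.248% a lower effect at day 18, and 11 genes had an unadjusted p below 0.05, 9 of them towards a higher effect at day 18. DESeq2 called 5 (LOX3, OPCL1, JAZ6, JAZ7 and MYC3), and limma-voom called 0. LOX3 in roots of day 18 stood at 23.7, 35.7 and 58.2 CPM untreated and at 41.5, 98.0 and 127.9 CPM with SAB, and its change was 5.06 on the log2 scale (SE 1.12, adjusted p = 0.0598, edgeR). It passed when untreated replicate 3 of day 8 was left out, and LOX3, JAZ7 and OPCL1 passed when SAB replicate 1 of day 18 was.

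The difference between the tissues at day 8 was tested over all 24 libraries. The SAB effect was lower in root than in leaf for 3 of 32 genes and higher for 0, where 1.98% and 0.102% of all 19681 identifiers passed. LOX3 differed by -5.13 on the log2 scale (SE 1.05, adjusted p = 0.00988, edgeR), JAZ6 by -3.11 (SE 0.66, adjusted p = 0.0133, edgeR) and AOC2 by -2.90 (SE 0.69, adjusted p = 0.0284, edgeR). The levels behind the LOX3 value were 4.95, 8.38 and 4.04 CPM in untreated leaves and 20.4, 14.4 and 8.24 CPM in SAB leaves, beside the root levels given above. AOC2 in roots stood at 118.2, 62.8 and 62.4 CPM untreated and at 32.1, 36.7 and 23.4 CPM with SAB. In AOC2 and JAZ6 the groups were thus apart in both tissues in opposite directions, while in LOX3 the leaf groups overlapped. CYP94C1, LOX4 and JAZ7 came next without passing (adjusted p = 0.0528, 0.0608 and 0.0657, edgeR). LOX3 passed in all 24 fits that left out 1 library, at -3.75 without untreated root replicate 1 of day 8. JAZ6 lost its call in 2 of them, without that replicate (adjusted p = 0.0543, edgeR) and without SAB root replicate 3 of day 8 (0.0568). AOC2 lost its call in 8, at adjusted p of 0.0563 to 0.0983: without any 1 untreated leaf, SAB leaf replicate 1 or 2, untreated root replicate 1 and SAB root replicate 1 or 3, all of day 8. limma-voom kept JAZ6 and lost LOX3 and AOC2 (adjusted p = 0.201 and 0.151). The count was 1, LOX3, without untreated root replicate 1 or SAB root replicate 3 of day 8. It was 5, 6 and 7 without untreated leaf replicate 1, 2 and 3 of day 18, and 5 without SAB root replicate 1 of day 18. At day 8, 8 of the 29 genes tested in both tissues (27.6%) had SAB above untreated in leaf and below it in root without overlap: LOX4, AOC2, JAZ1, JAZ6, JAZ7, JAZ8, CYP94C1 and bHLH017. Of all identifiers 3.31% did so, and the converse was seen in 0 of the 29 genes beside 1.64% of all identifiers.

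At day 18 the SAB effect was lower in root than in leaf in 30 of 32 fitted values, with a median of -1.30 beside -0.03 for all identifiers, but 0 genes passed edgeR's test, where 0.701% of all identifiers passed as lower and 0.320% as higher. Among the 32 were VSP2, JMT and AOC3, each at or near 0 in 1 tissue, and LOX2, with an SAB root mean of 0.092 CPM. The fitted values of these genes give no size. At an unadjusted p below 0.05 there were 16, all lower in root, DESeq2 called 4 (LOX2, JAZ8, JAZ12 and MYC3) and limma-voom called 1 (JAZ7). The smallest adjusted p was 0.0857, for JAZ12 and MYC3. Without untreated leaf replicate 3 of day 18 edgeR called 16.

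Many of these genes were higher at day 18 than at day 8 in untreated leaves, the same libraries that served as controls above. The ages were separate harvests, so age cannot be told apart from other differences between them. Of 31 genes 12 were higher at day 18 than at day 8 and 1 lower, where 20.0% and 20.5% of all identifiers were. CYP94C1 went from 0.610 ± 0.172 to 41.4 ± 44.3 CPM, with 14.0, 17.8 and 92.6 CPM in the 3 leaves of day 18, a log2 fold of 6.09 (SE 0.80, adjusted p = 0.000178, edgeR). JMT went from 0.0505, 0.0762 and 0.490 CPM to 8.24, 10.6 and 24.2 CPM (adjusted p = 7.79e-05, edgeR), too low at day 8 for a fold to be given. JAZ7 went from 0.534 ± 0.132 CPM to 1.90, 1.56 and 43.4 CPM, a log2 fold of 4.82 (SE 1.22, adjusted p = 0.00922, edgeR). In all 3 genes the ages did not overlap, and replicate 3 of day 18 was again the highest. Without that replicate the log2 fold was 1.69 for JAZ7 and 4.73 for CYP94C1, and both still passed. VSP2 was the gene that fell with age, from 3.89, 6.97 and 4.26 CPM to 1.01, 0.0743 and 0.369 CPM (adjusted p = 0.0301, edgeR), and its call was lost in 4 of 12 fits with 1 library left out, those without untreated replicate 2 or 3 of either age. The others higher at day 18 were LOX6 (AT1G67560), AOC2, OPR3, JAZ1, JAZ3, JAZ12, MYC2, COI1 and JOX2. Without untreated leaf replicate 2 of day 18 the count of genes passing in either direction was 20.

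In untreated roots 3 of 30 genes were higher at day 18 and 0 lower, where 8.22% and 8.25% of all identifiers were. JOX2 stood at 4.88, 5.36 and 3.87 CPM at day 8 and at 12.4, 12.6 and 19.2 CPM at day 18, a log2 fold of 1.68 (SE 0.22, adjusted p = 0.00102, edgeR). AOS stood at 29.8, 17.4 and 10.96 CPM at day 8 and at 38.3, 42.4 and 80.6 CPM at day 18, a log2 fold of 1.5 (SE 0.41, adjusted p = 0.0309, edgeR). JAZ8 stood at 37.9, 25.3 and 20.9 CPM at day 8 and at 38.6, 63.2 and 81.6 CPM at day 18, a log2 fold of 1.16 (SE 0.33, adjusted p = 0.0361, edgeR). The ages of JAZ8 were separated by less than 1 CPM at their nearest, those of AOS and JOX2 by more. With 1 root library left out at a time, JOX2 passed in all 12 fits, and the call was lost in 3 for AOS and 7 for JAZ8. Untreated replicate 3 of day 18, the highest of its group in 23 of the 30 genes against 37.3% of all identifiers, was among these for both: without it the log2 folds were 1.08 for AOS and 0.89 for JAZ8. JOX2 alone passed without untreated replicate 2 of day 8 or untreated replicate 3 of day 18. The count was 8 without untreated replicate 1 of day 8, and 5 without untreated replicate 1 or SAB replicate 1 of day 18.

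Between untreated root and leaf, counting both directions, the share of jasmonate genes called was near that of all identifiers, so the values are given as a description. At day 8, 15 of 32 genes were higher in root and 6 lower, where 32.7% and 29.0% of all identifiers were. At day 18 the counts were 11 higher and 8 lower, where 33.4% and 28% of all identifiers were. The 32 include AOC3, at 0 in all leaves, and VSP2 and JMT, at or near 0 in root. These genes passed the filter only through the other tissue, so the direction of their difference was fixed in advance. VSP2 and JMT are among the genes counted as lower in root at both ages. Scaling by library totals gave 24 higher and 5 lower at day 8 and 20 and 5 at day 18, with the median of all identifiers moved to 0.81 and 0.86 on the log2 scale, from 0.06 and 0.10. The synthesis gene AOC2 stood at 81.2 ± 32.1 CPM in root and 3.62 ± 0.909 CPM in leaf at day 8, a log2 fold of 4.47 (SE 0.54, adjusted p = 5.74e-07, edgeR), and at 182.0 ± 64.8 against 19.2 ± 16.4 CPM at day 18, one of 3.24 (SE 0.50), or 4.22 without untreated leaf replicate 3. JAZ1 stood at 215.1 ± 115.4 CPM in root and 7.88 ± 1.62 CPM in leaf at day 8, a log2 fold of 4.76 (SE 0.62, adjusted p = 1.41e-06, edgeR), and its log2 fold at day 18 was 3.31 (SE 0.57), or 4.74 without untreated leaf replicate 3. JAZ7 at day 8 stood at 39.9 ± 13.9 CPM in root and 0.534 ± 0.132 CPM in leaf, a log2 fold of 6.20 (SE 1.03, adjusted p = 3.13e-05, edgeR). JAZ10 (AT5G13220) at day 18 stood at 42.6 ± 25.8 CPM in root and 4.90 ± 3.81 CPM in leaf, a log2 fold of 3.13 (SE 0.58, adjusted p = 9.97e-05, edgeR), or 3.95 without untreated leaf replicate 3 and 2.51 without untreated root replicate 3.

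The leaf-side genes were fewer. LOX2 stood at 226.1 ± 59.2 CPM in leaf at day 8 and at 0, 0.125 and 0.0939 CPM in the roots, and VSP2 stood at 5.04 ± 1.68 CPM in leaf and was listed at 0 in the 3 roots. JMT at day 18 stood at 14.3 ± 8.60 CPM in leaf and at 0, 0 and 0.12 CPM in root. JAZ9 was the JAZ gene on the leaf side, at 309.4 ± 36.0 CPM in leaf and 24.3 ± 4.42 CPM in root at day 8, a log2 fold of -3.67 (SE 0.44, adjusted p = 4.05e-07, edgeR), and one of -2.98 (SE 0.42) at day 18, or -2.12 without untreated leaf replicate 3. MYC4 and ACX1 were also lower in root at both ages. In these comparisons the 3 leaf libraries of each gene lay apart from the 3 root libraries.

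**Figure D4:**
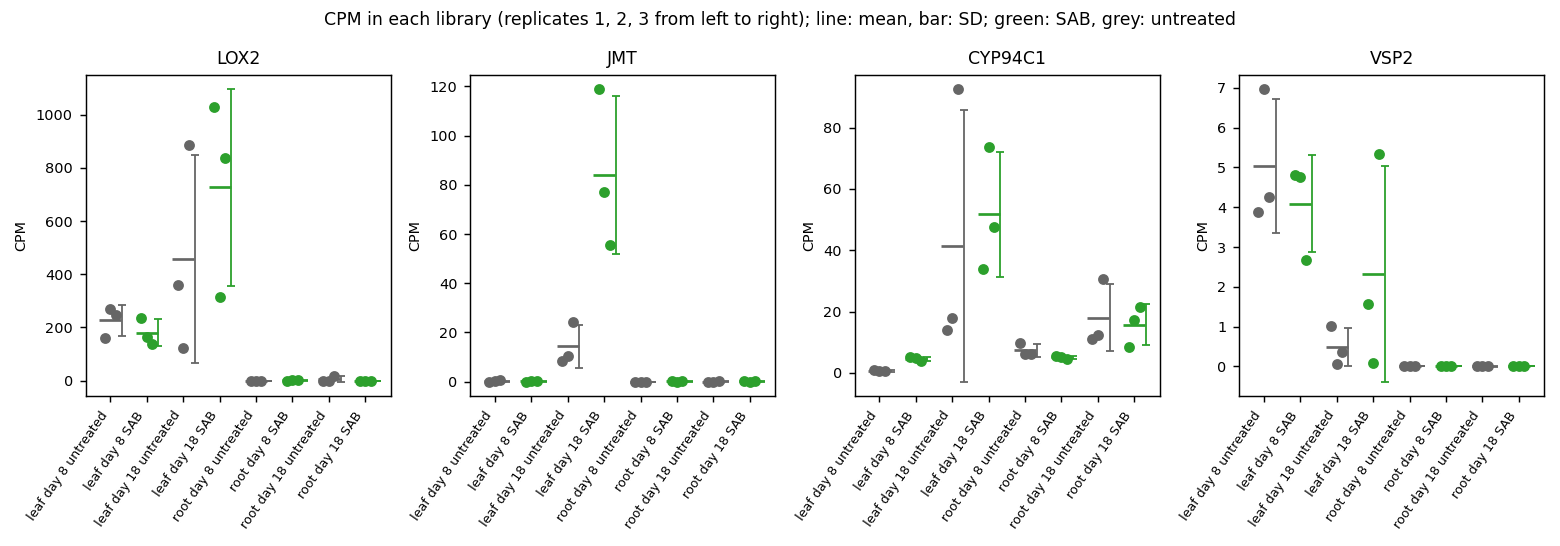
CPM of LOX2, JMT, CYP94C1 and VSP2 in each library of the 8 groups (points, replicates 1, 2 and 3 from left to right), with the mean (line) and SD (bar), SAB in green and untreated in grey. LOX2, JMT and VSP2 are at or near 0 in root apart from 1 untreated root of day 18 for LOX2, and JMT is highest in the SAB leaves of day 18.

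The sums hide differences between the rows of a gene, and nothing in the sources tells gene copies from transcript forms among them. Tested row by row in leaf at day 18, 13 of the 108 rows of these genes that passed the filter rose and 1 fell, where 2.89% and 2.59% of all 46762 rows did. The 13 belonged to 11 genes. For bHLH017, 6 of its 7 rows were tested, all 6 had a positive fold and 3 rose. The 2 rows of OPCL1 differed in size of fold: row 2 went from 5.70 ± 2.74 to 90.7 ± 33.9 CPM, a log2 fold of 4.01 (SE 0.46, adjusted p = 0.00194 over all rows, edgeR), and row 1 from 73.8 ± 50.5 to 186.9 ± 59.3 CPM, a log2 fold of 1.36 (SE 0.41, adjusted p = 0.0948, edgeR). The difference between the rows was not tested. Row 3 of LOX2 was listed at 0 in the untreated leaves and stood at 26.1 ± 15.5 CPM in the SAB leaves (adjusted p = 0.00184, edgeR), while the larger rows 11 and 12 of LOX2 did not pass. The row that fell was row 3 of LOX6, at 6.17 ± 2.94 CPM untreated and listed at 0 with SAB, whereas row 10 of LOX6 rose from 7.73 ± 1.12 to 14.6 ± 3.41 CPM. In roots of day 18 the same row 3 stood at 4.84 ± 2.68 CPM untreated and was also listed at 0 with SAB, without passing (adjusted p = 0.109, edgeR). Values of single rows are uncertain, because the estimation may have shared reads out among similar rows.

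Beyond these genes, a wider list of 42 jasmonate genes of transport, beta-oxidation, repression, turnover and response held 38 that were in the table, and the other 4 were not analysed here. In leaf at day 18, 6 of 33 tested rose (18.2%) and 1 fell (3.03%), where 7.91% and 6.52% of all identifiers did, and the median log2 fold was 0.23 beside -0.001. PLIP2 (AT1G02660), a plastid lipase gene, stood at 17.5, 24.3 and 29.9 CPM untreated and at 69.9, 41.9 and 64.3 CPM with SAB, a log2 fold of 1.31 (SE 0.24, adjusted p = 0.00551, edgeR). JAM2 (AT1G01260), a repressor related to bHLH017, stood at 23.1, 17.7 and 32.6 CPM untreated and at 52.0, 46.6 and 43.6 CPM with SAB (adjusted p = 0.00922, edgeR). ANAC019 (AT1G52890), a NAC factor gene downstream of MYC2 in Arabidopsis thaliana, stood at 0.646, 2.49 and 3.83 CPM untreated and at 82.0, 45.5 and 17.4 CPM with SAB, a log2 fold of 4.40 (SE 0.80, adjusted p = 0.00543, edgeR). In these 3 genes the groups did not overlap. JAM3, ANAC055 and TAT3 were the others that rose, and LOX1, a lipoxygenase gene outside jasmonate synthesis, fell by 0.36 on the log2 scale (adjusted p = 0.0388, edgeR). In root at day 8, 1 of 35 fell and 0 rose, where 0.0685% and 0.00527% of all identifiers did. It was ERF1 (AT3G23240), a factor gene that ethylene and jasmonate both induce, which went from 14.8, 8.43 and 9.98 CPM to 1.95, 2.79 and 3.30 CPM, a log2 fold of -2.06 (SE 0.26, adjusted p = 0.0228, edgeR). Of the wider list 0 passed edgeR's test in leaf at day 8, where 0.390% of all identifiers rose and 0.0339% fell, with 4 at an unadjusted p below 0.05. In root at day 18, where 0.200% rose and 0.564% fell, 0 passed, with 3 at an unadjusted p below 0.05. This list was not run under other tools.

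**Figure D5:**
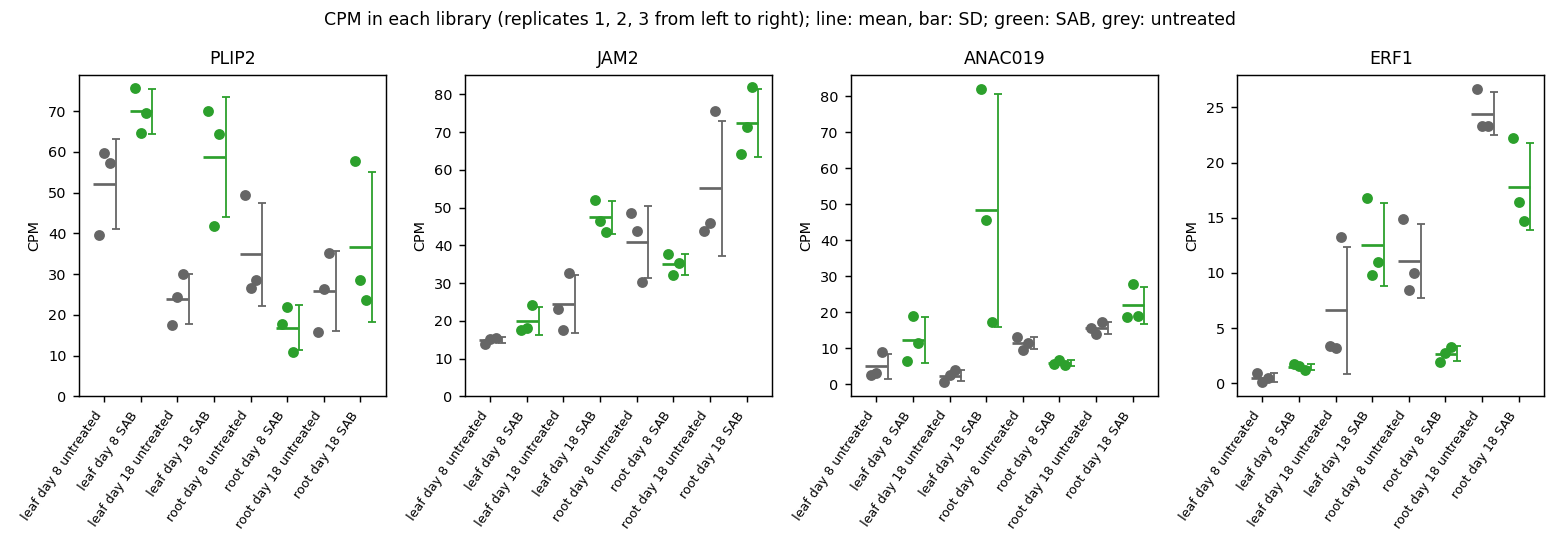
CPM of PLIP2, JAM2, ANAC019 and ERF1 in each library of the 8 groups (points, replicates 1, 2 and 3 from left to right), with the mean (line) and SD (bar), SAB in green and untreated in grey. The SAB leaves of day 18 lie above the untreated leaves for PLIP2, JAM2 and ANAC019, and the SAB roots of day 8 lie below the untreated roots for ERF1.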

How the data were processed

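Per the labels' protocols, polyadenylated RNA was read from both ends, 100 bases each. The authors deposited 1 table of estimated counts for 24 libraries, with row identifiers in the form of Arabidopsis thaliana locus codes. Trim Galore, Bowtie2 and kallisto are named per the submitters' processing notes. What each did, its version and the genome build were not given in the sources used here. Estimated counts were summed over the rows of an identifier in each library and rounded to whole numbers. Where 1 read is worth more than 1 estimated count, low values are less precise than they look.

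Tests used edgeR 4.0.16 (quasi-likelihood, TMM, default filter with minimum count 10 and total 15, robust dispersion) with Benjamini-Hochberg adjustment at 0.05, in R 4.3.3. Each tissue's 12 libraries were fitted together, and all 24 for contrasts between tissues. Each SE is the log2 fold over the root of its F statistic. Only the main edgeR fit of the 4 SAB comparisons was run on simulated data, with no result given here, and the other contrasts and fits were not. No fold is given as a size where a group mean was below 0.5 CPM, a limit chosen after values were seen. DESeq2 1.42.0, limma 3.58.1 (voom), other scalings, no filter, a replicate block, only the libraries compared, single rows and each library left out were alternatives. Same-numbered libraries deviated together between leaf and root at day 18 (correlations 0.401 to 0.498) but not in every pair between treatments, days or at day 8. The genes and lists were chosen with earlier results of these data known. By rule, library values are given for the called genes of each SAB comparison up to a set number by smallest p, or for the 4 genes with the smallest p where few passed. Between ages and between tissues the called genes with the largest folds are given, some as means. Some library values fall outside this rule, such as those of MYC2 and VSP2 in leaf at day 18 and LOX4 in root at day 8. Of the 20564 identifiers 0 matched the reference gene table, so no sequences or coordinates are given.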

Additional observations from a re-analysis of the deposited data

Results flagged for a closer look

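In 4 values the SAB effect differed between groups of libraries by a direct test. In leaf the SAB effect on JAZ8 was 1.54 higher on the log2 scale at day 18 than at day 8 (SE 0.35, edgeR adjusted p = 0.048). At day 8 the SAB effect was lower in root than in leaf by -5.13 for LOX3 (SE 1.05, edgeR adjusted p = 0.00988), by -3.11 for JAZ6 (SE 0.66, edgeR adjusted p = 0.0133) and by -2.90 for AOC2 (SE 0.69, edgeR adjusted p = 0.0284), also on the log2 scale. With 1 library left out at a time, the call was lost in 11 of 12 fits for JAZ8 and 8 of 24 for AOC2. For JAZ6 it was lost in 2 of 24 and for LOX3 in 0 of 24. The calls of LOX3 and AOC2 were also lost under limma-voom (adjusted p = 0.201 and 0.151). The gap test for a single far library was not applied to groups of 3.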

How the results depend on the processing

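The direction of all but 1 of the 47 gene values named by rule was the same under every alternative run for it: of 1071 alternative values 971 kept their side of the threshold, 85 lost it, 14 gained it and 1 turned. The one that turned was LOX2 in root at day 18, a fitted value that gives no size because the SAB mean was below 0.5 CPM: it was -5.99 over all libraries, 1.90 without untreated replicate 3 and -7.25 without SAB replicate 3. Counts of jasmonate genes called moved by over 1.5 times as follows, and the cause was not tested. DESeq2 called 1 in leaf day 8, 8 in root day 8, 2 in root day 18, 3 and 5 for the change with day in leaf and root, 8 and 4 for root minus leaf at day 8 and day 18, and 10 for age in root. The fit of only the libraries compared called 5 in leaf day 8, 3 in leaf day 18, 8 for root minus leaf at day 8, 1 for age in root and 12 for root against leaf at day 18. limma-voom called 1 for root minus leaf at each day and 5 for age in root. The change with day in leaf was 0 under median-ratio scaling and with no filter, and single rows gave 3 there and 1 in root. Library totals gave 3 for root minus leaf at day 18.

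With a replicate block the change with day in leaf was 0, root minus leaf at day 8 was 6 and age in root was 1, and leaf day 18 was 10, of which 9 were among the 12. Same-numbered leaf and root libraries deviated together at day 18, although the labels do not state that they pair. There the block left root minus leaf at 0 and moved root against leaf from 19 to 22. Elsewhere same-numbered libraries did not deviate together in every pair.

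With 1 library left out at a time the counts ran from 0 to 4 in leaf day 8, 6 to 22 in leaf day 18, 0 to 0 in root day 8 and 0 to 1 in root day 18. They ran from 0 to 13 and 0 to 3 for the change with day in leaf and root, 1 to 7 and 0 to 16 for root minus leaf at day 8 and day 18, 9 to 20 and 1 to 8 for age in leaf and root, and 20 to 25 and 15 to 28 for root against leaf at day 8 and day 18. Depth limits genes under 1 CPM most.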
